A study of Mus musculus with 6 samples.

Results

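Follistatin (Fst), its relatives Fstl1 and Fstl3, the activin subunit genes Inhba and Inhbb, the bone morphogenetic protein (BMP) antagonist genes Nog, Grem1 and Chrdl1 and the pseudoreceptor gene Bambi were examined in the skull roof of mice. They were found as every probe set that the array's annotation gives exactly 1 gene symbol, that symbol being 1 of these 9, which gave 16 of 45101 probe sets and 9 of 18193 named genes. The set was picked because Fst was higher on mutant arrays, so the genotype differences of all 9 genes are given below as a description, with no test.

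Parietal bones came from 10-day-old wild-type mice, called control, and from littermates of the 13del-tg line, which express a Col10a1-13del transgene and are described by their label as having bone overgrowth. The labels give 3 biological replicates of each genotype, and they do not name the promoter of the transgene, the strain or the animals' sex. Each sample was hybridised to 1 single-colour array, and whole cryosectioned bone was extracted, so fewer cells of a type and less RNA per cell cannot be told apart. The values are MAS5 intensities, 1 per probe set and array.

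The files hold the same value for control 1 and 13del-tg 1 at all 45101 probe sets, against 0.115% to 0.213% of probe sets for every other pair of arrays. This array carries both genotype labels, is called the shared array here, and is shown apart, and the comparison set 13del-tg 2 and 3 against controls 2 and 3. Col10a1, the collagen X gene that the transgene label names, had intensities of 149.8 and 158.2 in the controls, 15688.7 and 11584.4 in 13del-tg and 152.2 on the shared array, which for this gene goes against the 13del-tg label. Xist, transcribed from the inactive X chromosome, was 15206.4 on 13del-tg 3 and 29.9 to 84.5 on the other arrays, and the Y-linked Eif2s3y was 11.1 on 13del-tg 3 and 1652.3 to 1910.2 elsewhere. Sex is therefore mixed among the 13del-tg arrays and not among the controls. Summed skeletal muscle marker intensity (6 genes) was 100683.3 and 17449.5 in the controls, 139576.9 and 107651.9 in 13del-tg and 124971.3 on the shared array. Chondrocyte markers (7 genes) summed to 30292.5 and 15120.2, 15290.8 and 6605.9, and 15014.6 in the same order. The 6 pineal and photoreceptor markers summed to 4173.7 and 8737.2 in the controls against 334.8 and 400.1 in 13del-tg and 519.7 on the shared array, and 3 of them passed the test described below. The 6 osteoblast markers found, which define the tissue, summed to 114453.5 and 126574.7 in the controls, 130115.0 and 142760.6 in 13del-tg and 81268.1 on the shared array. Fibroblast and periosteum markers (5 genes) summed to 108071.0 and 111394.6, 118575.7 and 121238.3, and 82844.2 in the same order. Both sums were higher on both 13del-tg arrays than on both controls, and lowest on the shared array. Gene by gene, 2 of 6 osteoblast markers were higher on both 13del-tg arrays than on both controls and 0 were lower. Of the 5 fibroblast and periosteum markers 2 were higher and 1 was lower in this way.

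Activins are dimers of inhibin beta subunits that signal through type II and type I serine kinase receptors to SMAD2 and SMAD3, whereas BMPs signal through related receptors to SMAD1, SMAD5 and SMAD9. Follistatin and Fstl3 are secreted proteins that wrap around activins and keep them from their receptors, and noggin, gremlin 1 and chordin-like 1 do the same to BMPs. In bone, BMPs drive osteoblast differentiation, activin A is made by bone cells and held in bone matrix, and noggin and other BMP antagonists act in the sutures of the skull.

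Of the 9 genes, 5 had an entry in the RefSeq promoter table (GRCm38.p6), namely Fstl1, Fstl3, Grem1, Inhba and Inhbb. The 250 bases before the listed transcript start are shown for Fstl3 and Inhba, an activin antagonist and an activin subunit whose 1 kept probe set each was lower on both 13del-tg arrays. Capitals mark matches on either strand to the motifs searched, and in Fstl3 and Inhba these are GTCTG, the core of the SMAD box, and TATAAA. Fstl3 lies on the + strand of chromosome 10 and its window is chr10:79777024-79777273. Inhba lies on the + strand of chromosome 13 with its window at chr13:16011601-16011850, inside the RefSeq span of the gene, so that other listed transcripts start before it.
Fstl3: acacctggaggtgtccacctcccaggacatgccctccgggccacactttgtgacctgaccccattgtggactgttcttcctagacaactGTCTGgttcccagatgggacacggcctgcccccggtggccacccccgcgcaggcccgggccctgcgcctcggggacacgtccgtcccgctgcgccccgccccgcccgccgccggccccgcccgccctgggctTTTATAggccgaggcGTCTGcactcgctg
Inhba: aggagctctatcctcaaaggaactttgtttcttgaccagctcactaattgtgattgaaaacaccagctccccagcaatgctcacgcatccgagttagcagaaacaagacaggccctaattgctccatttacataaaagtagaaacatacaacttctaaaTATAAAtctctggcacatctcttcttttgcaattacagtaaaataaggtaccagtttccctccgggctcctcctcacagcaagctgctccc
Fstl3 held GTCTG at 161 and 14 bases before the start and TATAAA, read on the other strand, at 29 bases. Inhba held TATAAA at 91 bases before the start. Of 32851 promoter windows of the same length, 42.2% held GTCTG and 12.4% held TATAAA. The GC share was 71.2% in Fstl3 and 43.2% in Inhba. GGCGCC (9.59% of windows), the cyclic AMP response element TGACGTCA (1.55%), the AP-1 element TGANTCA (6.75%) and TGATGNAA, a core shared by composite C/EBP and ATF sites (3.45%), were not in these 2 windows, and no match overlapped another. These matches describe letters only.

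Follistatin had the largest difference of the 15 probe sets kept after dim ones were left out. On the brighter Fst probe set, 1434458_at, the intensity was 305.3 and 235.4 in the controls and 672.5 and 729.4 in 13del-tg, and it was 620.9 on the shared array. Both 13del-tg arrays lay above both controls, and the shared array lay near the 13del-tg arrays. On Col10a1, however, the shared array (152.2) lay with the controls (149.8 and 158.2). High Fst on 1434458_at was thus also seen on an array without the Col10a1 rise, which limits what the difference says about genotype. The means were 270.4 ± 49.4 and 701 ± 40.2 (SD, n = 2 each), a log2(signal + 16) difference of 1.33 (SE 0.27), or 2.52-fold. Here and below a difference is 13del-tg minus control and SE is the standard error from the model fitted to all kept probe sets.

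The second Fst probe set, 1421365_at, was dimmer and had 108.6 and 189.8 in the controls and 233.1 and 229.2 in 13del-tg. Both 13del-tg arrays were again above both controls, by 0.63 (SE 0.37) on the log2 scale. The shared array had 116.6, between the controls, so the 2 Fst probe sets placed that array differently: 1.16 above the control mean on 1434458_at and 0.27 below it on 1421365_at, on the log2 scale. The difference of 1421365_at was 0.26 without control 2 and 0.99 without control 3, and with the shared array counted as 13del-tg it was 0.33. On 1434458_at the difference was 0.95 when the shared array was counted as control and 0.89 with it under both labels.

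The groups' cell type markers can be set beside the Fst values. The 6 muscle marker genes had a median difference of 1.695, positive in 5 of 6, and 3 of 6 were higher on both 13del-tg arrays than on both controls. The skeletal muscle progenitor markers summed to 1181.7 and 417.1 in the controls, 1972.1 and 840.6 in 13del-tg and 3527.5 on the shared array, with 3 of 3 positive and a median difference of 0.80. Control 3 was lowest of the 5 arrays both in these sums and in Fst on 1434458_at. On 1421365_at control 3 (189.8) was above control 2 (108.6) and the shared array (116.6). Control 2 and 13del-tg 3 had similar summed muscle markers, 100683.3 and 107651.9, but Fst of 305.3 and 729.4 on 1434458_at. The erythroid markers found (3 of 7 listed) summed to 9912.6 and 12241.0 in the controls, 2816.6 and 3591.4 in 13del-tg and 6400.1 on the shared array. The median differences of the pineal, chondrocyte and erythroid lists were -4.24, -1.39 and -1.90, opposite in sign to Fst, the last from 2 kept genes. Smaller negative medians were those of osteoclast (-0.36), endothelium (-0.23), macrophage (-0.15), osteocyte (-0.12), adipocyte (-0.099) and brain (-0.043) markers. Osteoblast (0.15), keratinocyte (0.078, 1 kept gene) and fibroblast and periosteum (0.049) medians were positive. The part of any of these cell types in the Fst difference was not tested. Without 13del-tg 3, the array with high Xist, the Fst difference was 1.28 on 1434458_at and 0.64 on 1421365_at. This sets 13del-tg 2 alone against controls 2 and 3, and leaves out the shared array, which also had low Xist. The part of sex in the Fst difference was not tested.

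**Figure D1:**
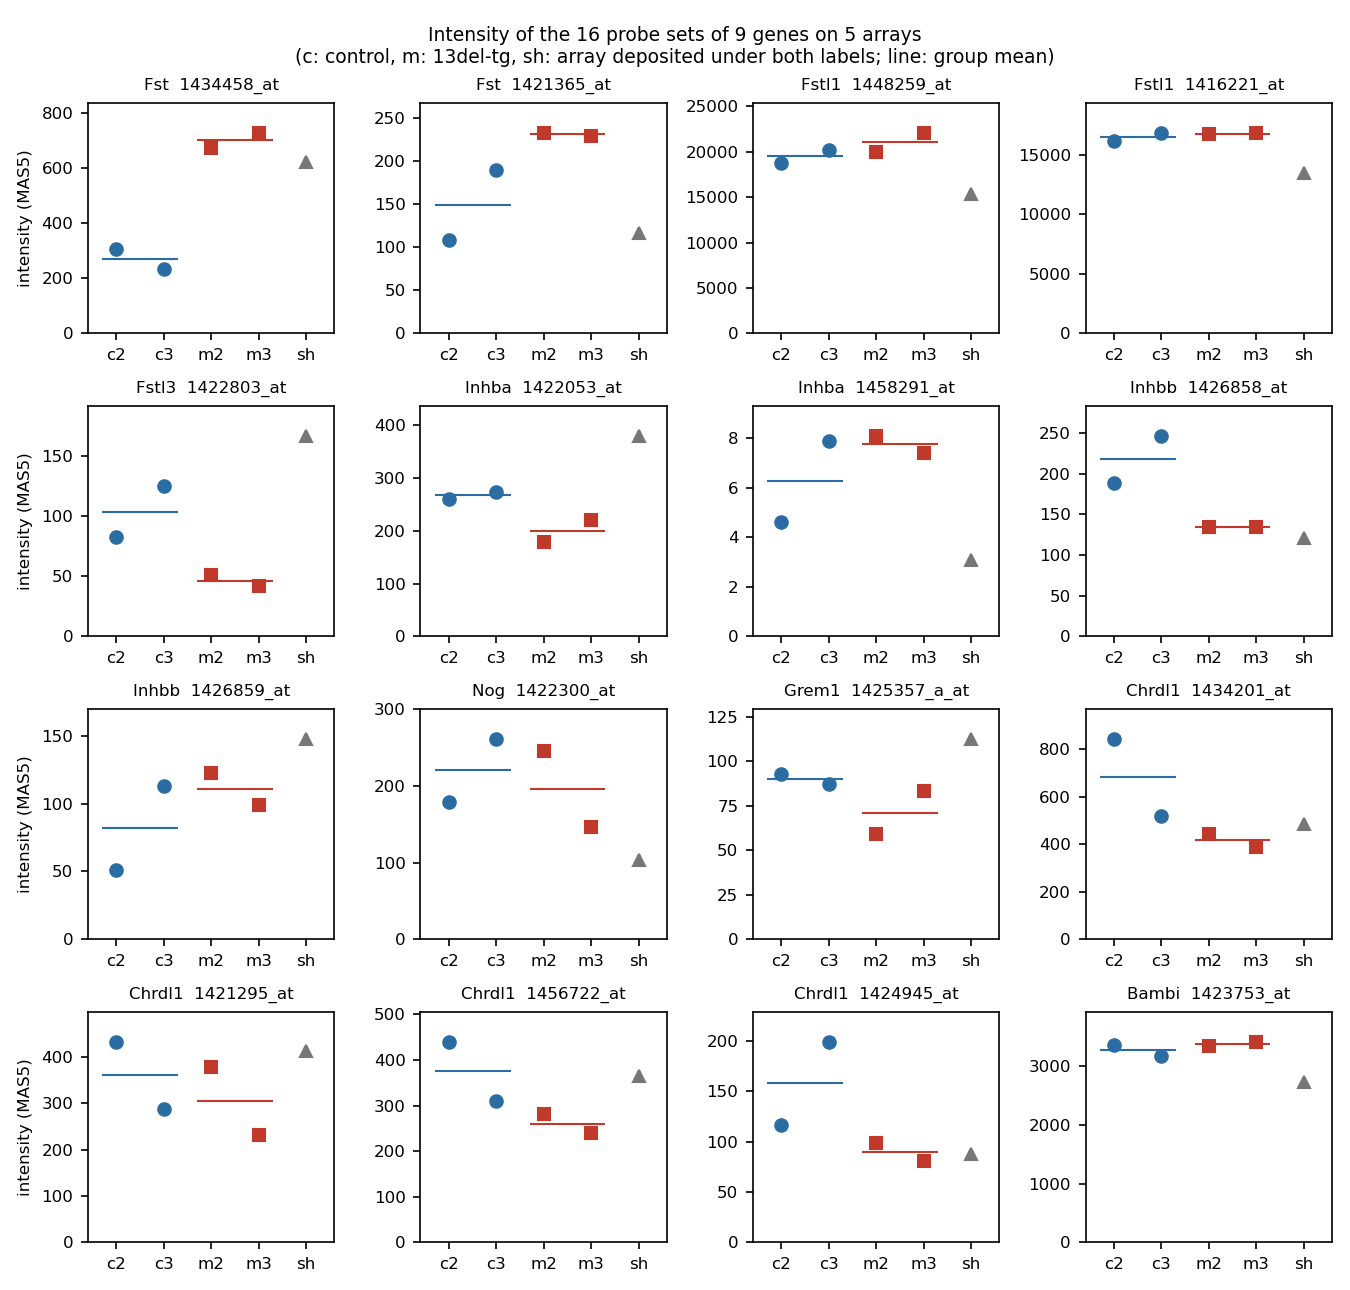
Intensity (linear axis from 0) of each of the 16 probe sets on controls 2 and 3 (blue circles), 13del-tg 2 and 3 (red squares) and the shared array (grey triangle), with group means as lines. For Fst 1434458_at the 13del-tg arrays (672.5 and 729.4) and the shared array (620.9) sit above both controls, and for Fstl3 and Inhba the shared array (167.2 and 380.6) sits above all others.

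Fstl3, the other activin-binding follistatin protein, differed in the opposite direction to Fst. Its intensity was 83 and 124.9 in the controls, 51.4 and 41.6 in 13del-tg and 167.2 on the shared array. Both 13del-tg arrays were below both controls, and the shared array was above all 4. The difference was -0.92 (SE 0.43). Both 13del-tg values lay under 61.9, the signal at which probe sets were kept, so the gene was kept through its other arrays and the size depends on the pseudocount (-1.12 with 1 and -0.59 with 64). It was -0.40 with the shared array counted as 13del-tg.

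Fstl1, a secreted follistatin-like glycoprotein that is abundant in mesenchymal tissue, included the smallest difference of the set. On 1448259_at it was 18749.3 and 20250.7 in the controls, 19993.0 and 22113.6 in 13del-tg and 15375.4 on the shared array. On 1416221_at it was 16122.4 and 16857.4, 16765.2 and 16799.8, and 13504.3. The groups overlapped on both, with differences of 0.11 (SE 0.18) and 0.026 (SE 0.17), and the shared array was below all others on both. Quantile normalization turned both signs, to -0.092 and -0.14, so no direction is given.

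The activin subunit genes had lower values in 13del-tg on their brighter probe sets. Inhba, which encodes the beta A subunit of activin A, was 260.7 and 274.4 in the controls, 178.7 and 219.9 in 13del-tg and 380.6 on the shared array. The 13del-tg intensities were both under the lower control (difference -0.40, SE 0.31), and the shared array lay above all 4. The difference was -0.26 without 13del-tg 2, -0.22 with arrays centred on their median and -0.11 with the shared array counted as 13del-tg. A second Inhba probe set, 1458291_at, had 3.1 to 8.1 on all 5 arrays and was left out of the fit as dim.

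Inhbb, the beta B subunit gene, had 2 kept probe sets that disagreed. On 1426858_at it was 189 and 247 in the controls, 134.4 and 134.2 in 13del-tg and 121.2 on the shared array, with a difference of -0.63 (SE 0.34) and no overlap of the groups. On 1426859_at it was 51.1 and 113.1, 122.6 and 99, and 147.8, with a difference of 0.44 (SE 0.45) and overlapping groups. The second turned to -0.032 without control 2. No direction is given for Inhbb as a gene.

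Among the BMP antagonists, Chrdl1, chordin-like 1, was lower on both 13del-tg arrays for 3 of its 4 probe sets. On the brightest, 1434201_at, it was 844.7 and 518.7 in the controls, 443.1 and 390.1 in 13del-tg and 484 on the shared array. That is a difference of -0.65 (SE 0.30), and -0.31 without control 2 or -0.995 without control 3. On 1456722_at the values were 440.4 and 309.4, 281.1 and 239.1, and 364.1 (difference -0.49, SE 0.31). On 1424945_at they were 116.7 and 199.5, 98.7 and 81.3, and 88 (difference -0.68, SE 0.40). The controls were ordered differently by these probe sets, with control 2 above control 3 on all but 1424945_at. Without control 2 and without control 3 the differences were -0.24 and -0.73 on 1456722_at and -1.03 and -0.33 on 1424945_at.

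The fourth Chrdl1 probe set, 1421295_at, had 432.8 and 288 in the controls, 378.6 and 232.1 in 13del-tg and 412.5 on the shared array, with overlapping groups and a difference of -0.24 (SE 0.35). Chrdl1 lies on the X chromosome, and 13del-tg 3, the array with high Xist, was below 13del-tg 2 on all 4 of its probe sets. Among the controls, neither of which had high Xist, control 3 was below control 2 on all but 1424945_at. The part of sex in these values was not tested. Without 13del-tg 3 the difference of 1421295_at was 0.095 and those of the other 3 were -0.56, -0.56 and -0.38 in the order 1434201_at, 1424945_at and 1456722_at.

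Noggin and gremlin 1 showed smaller differences. Nog, which binds BMPs directly, was 178.5 and 261.1 in the controls, 245.2 and 146.1 in 13del-tg and 103.6 on the shared array. Its groups overlapped, with a difference of -0.17 (SE 0.38), which turned to 0.0098 with arrays centred on their median and 0.17 without 13del-tg 3. Grem1 was 92.7 and 87 in the controls, 58.9 and 83.4 in 13del-tg and 112.6 on the shared array, a difference of -0.29 (SE 0.41) with no overlap, and -0.090 without 13del-tg 2 or -0.50 without 13del-tg 3. The gap between the lowest control and 13del-tg 3 was small, 87 against 83.4.

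Bambi, a membrane protein that resembles a type I receptor without a kinase domain and dampens BMP and activin signals, differed little between the genotypes. It had 3345.6 and 3172.8 in the controls, 3336.4 and 3409.5 in 13del-tg and 2727.4 on the shared array. The difference was 0.050 (SE 0.19) with overlapping groups, and it turned to -0.019 with quantile normalization. The shared array was below all others, as it was for both Fstl1 probe sets.

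**Figure D2:**
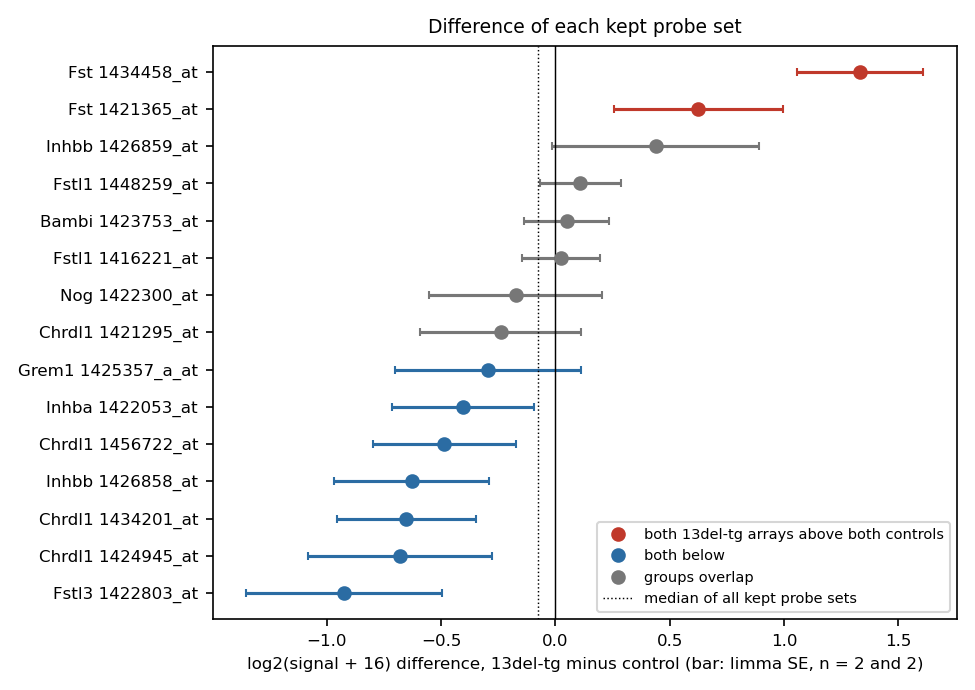
Log2(signal + 16) difference, 13del-tg minus control, of the 15 kept probe sets with limma SE bars (n = 2 and 2), coloured by whether the groups overlapped. Fst 1434458_at (1.33) and Fst 1421365_at (0.63) are the 2 with both 13del-tg arrays above both controls, and Fstl3 (-0.92) is the lowest.

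Over the 15 kept probe sets, 6 differences were positive and 9 negative, and the median was -0.24, beside -0.075 over all 27022 kept probe sets, of which 41.4% were positive and 58.6% negative. Both 13del-tg arrays were above both controls for 2 of the 15 (12.6% of all kept probe sets) and below both for 7 (23.0% of all). Because the genes were picked on this contrast, nothing is read from these counts. When arrays were centred on their medians, the median difference of all kept probe sets became 0.11. Nog changed sign with that centring (0.0098). Both Fstl1 probe sets (-0.092 and -0.14) and Bambi (-0.019) changed sign with quantile normalization. No direction is given for these genes. The shared array was above both controls for 5 of the 15 and below both for 7, against 36.0% and 36.2% of all kept probe sets.

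Other genes of the pathway were taken from 5 lists and tested by limma, with Benjamini-Hochberg adjustment over all 27022 kept probe sets. None of the 96 kept probe sets of the 5 lists passed in either direction (smallest adjusted p = 0.880), against 2 higher and 8 lower over all kept probe sets, which is 0.00740% and 0.0296%. At an unadjusted limma p under 0.05, 0 of the 96 were higher and 6 were lower, against 1.42% and 3.72% of all kept probe sets.

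Of the other extracellular antagonists, 13 of 18 listed genes had kept probe sets, 18 in number, with 6 positive and 12 negative differences and a median of -0.12. Sostdc1, a BMP and Wnt antagonist, was 538 and 370 in the controls and 338.4 and 253.1 in 13del-tg (difference -0.58, SE 0.32). Wfikkn2, which binds myostatin and GDF11, had -0.77 (SE 0.44). Chrd, which encodes chordin, was 242.6 and 214.2 against 171.2 and 152.5 (difference -0.46, SE 0.32). On the shared array Sostdc1 had 559.7, above both groups, Wfikkn2 had 141.5, between the 13del-tg values, and Chrd had 128.7, below both groups. Without 13del-tg 2 the Wfikkn2 difference was -0.30 and without 13del-tg 3 it was -1.24, and that of Sostdc1 was -0.32 without control 2 and -0.38 without 13del-tg 3. None of the 3 passed (limma adjusted p = 0.880 to 0.883). Over the list, 4 of 18 kept probe sets were lower on both 13del-tg arrays, beside 23.0% of all kept probe sets.

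Receptors and co-receptors had 29 kept probe sets of 12 genes, 12 positive and 17 negative, with a median of -0.096. Acvr2b, a type II receptor for activins, was 196 and 286.8 in the controls and 144.3 and 110.6 in 13del-tg (difference -0.83, SE 0.36). Bmpr1a, a type I BMP receptor, had a difference of 0.52 (SE 0.23) on 1425494_s_at, and 4 of its 5 probe sets were positive. The shared array had 166.9 for Acvr2b and 973.8 for Bmpr1a on 1425494_s_at, each between the groups. Hjv, a BMP co-receptor known from liver and skeletal muscle, was 1391.4 and 138.4 in the controls, 2120.8 and 1137.2 in 13del-tg and 3810.7 on the shared array. Its groups overlapped, with control 3 apart from the rest, as it was for the summed muscle markers (17449.5 on control 3 against 100683.3 or more on the others). Its difference was 1.75 (SE 0.86), which was 0.16 without control 3 and passed without control 2 (3.35, limma adjusted p = 0.00189).

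Ligands other than the activin subunits described had 13 kept probe sets of 9 genes, 2 positive and 11 negative, with a median of -0.27. At an unadjusted p under 0.05, 4 of the 13 were lower (3.72% of all kept probe sets), and none was higher. Bmp7 was 461.4 and 530 in the controls and 309.3 and 193.5 in 13del-tg on 1435479_at (difference -0.97, SE 0.32), and all 3 of its probe sets were negative. Gdf10, also called BMP3B, was 6640.4 and 6680.0 against 5200.3 and 3574.2 (difference -0.63, SE 0.22, and -0.36 without 13del-tg 3). Gdf2, which encodes BMP9, had -1.58 (SE 0.60) from low intensities of 116.4 and 202.3 against 84.4 and 16.1, and it was -0.76 without 13del-tg 3 and -2.41 without 13del-tg 2. On the shared array Bmp7 1435479_at had 483.6, between the controls, and Gdf10 had 4545.2, between the 13del-tg values. Gdf2 had 100.3 there, between the groups.

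SMADs and their regulators had 21 kept probe sets of 10 genes, 10 positive and 11 negative, with a median of -0.022. Smad1, a BMP signal transducer, had -0.51 (SE 0.31) on 1416081_at, while its other 2 probe sets were positive, and it was -0.29 without control 3 and -0.30 without 13del-tg 3. Smad4, the common partner of activin and BMP SMADs, had 0.29 (SE 0.22) and Smad5 -0.28 (SE 0.23), each with 2 of 3 probe sets of that sign, and without 13del-tg 3 they were 0.089 and -0.11. The shared array had 320.4 for Smad1 1416081_at, between the 13del-tg values. It had 3175.6 for Smad4, below both groups, and 1290.6 for Smad5, between the groups. BMP response genes had 15 kept probe sets of 10 genes, 9 positive and 6 negative, with a median of 0.042. Id4, an inhibitor of DNA binding, was 349.9 and 508.9 in the controls, 192.4 and 213.1 in 13del-tg and 213.1 on the shared array (difference -1.004, SE 0.32), and its 3 probe sets were all negative. Id1, a direct BMP target, was 2947.7 and 2799.3 against 3649.9 and 3817.7, with 2264.0 on the shared array (difference 0.38, SE 0.19). Atoh8, another BMP-induced gene, had 0.52 (SE 0.36), and 0.24 without control 2. Its value on the shared array, 107.2, was below both groups, as that of Id1 was. Runx2 was not measured here, as no probe set is annotated with its symbol alone.

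**Figure D3:**
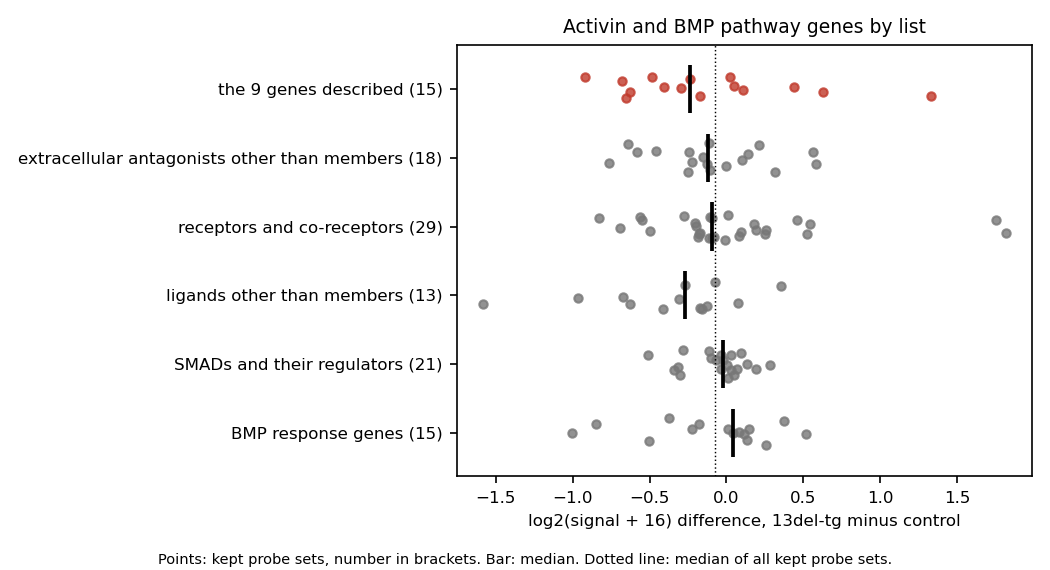
Log2(signal + 16) differences, 13del-tg minus control, of kept probe sets of the 9 genes described (red) and of the 5 pathway lists (grey), with list medians as bars and the median of all kept probe sets (-0.075) as a dotted line. The medians run from -0.27 (ligands) to 0.042 (BMP response genes), and the 2 points at the right of the receptors are the Hjv probe sets.

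The genes whose pattern over the 5 distinct arrays was most like that of Fst 1434458_at were found by the root mean square difference between log2 values, each gene centred on its own mean. They were Esm1, an endothelial proteoglycan gene (0.11), Slc38a10, a transporter gene (0.14), Hikeshi, which encodes an import factor for heat shock proteins (0.17), Dnajc24 (0.17) and Vgll3, a transcriptional cofactor gene (0.18). Esm1 was 138.7 and 91.1 in the controls, 318.4 and 392.2 in 13del-tg and 294.5 on the shared array. Dnajc24 was 42.8 and 39.4 in the controls, 90.2 and 106.6 in 13del-tg and 96.3 on the shared array. Both of its control values lay under 61.9, the signal at which probe sets were kept, so it was kept through the arrays where it was high. For all 5 of these genes both 13del-tg arrays and the shared array lay above both controls, which the choice by likeness fixes in large part.

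**Figure D4:**
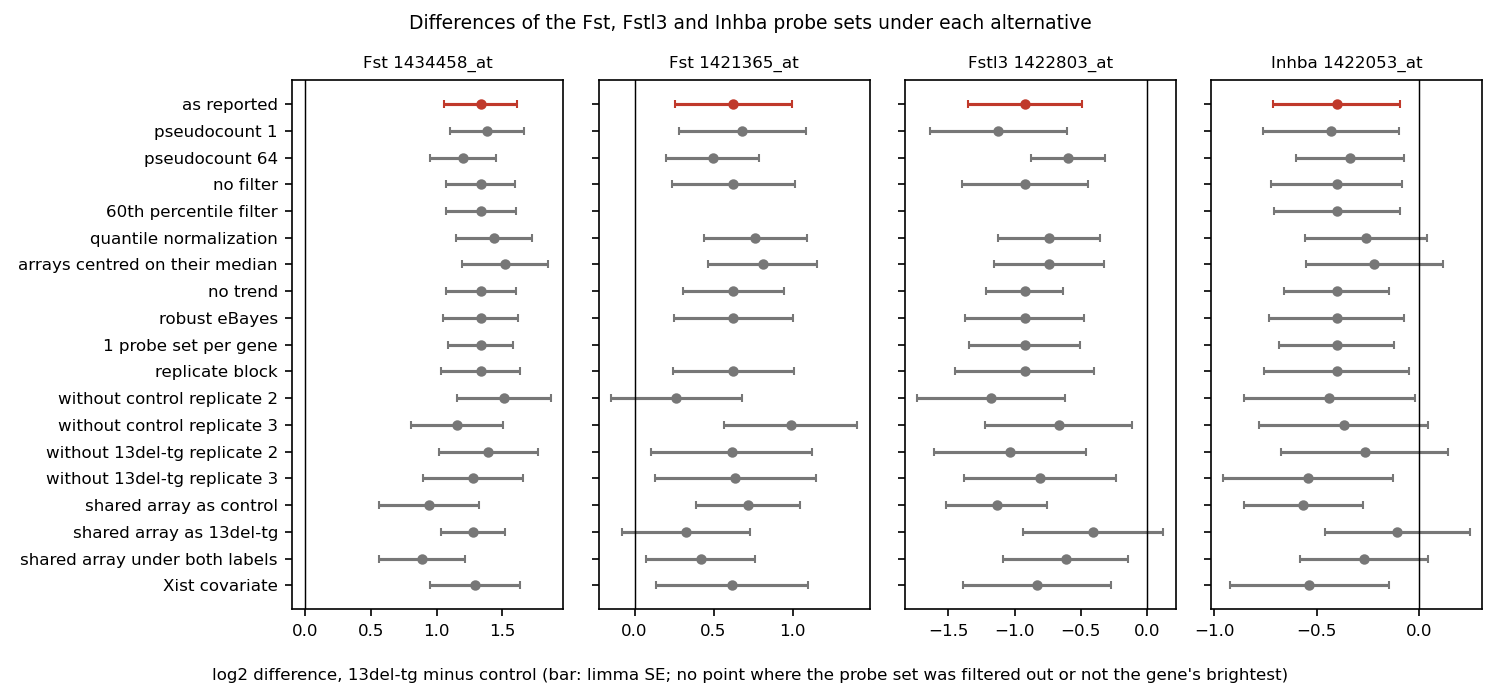
Log2 difference, 13del-tg minus control, of the kept Fst, Fstl3 and Inhba probe sets as reported (red) and under each alternative (grey), with limma SE bars. Fst 1434458_at runs from 0.89 to 1.52, Fst 1421365_at from 0.26 to 0.99, Fstl3 from -1.18 to -0.40 and Inhba from -0.57 to -0.11. The filter, trend, robust eBayes, 1 probe set per gene and replicate block settings cannot move a difference, and Fst was picked on this contrast.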

How the data were processed

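Gene expression was measured in parietal bone on single-colour arrays. Values were deposited for 6 samples, but only 5 of the arrays are distinct. What was deposited is 1 linear intensity per probe set and array. MAS5 is named in the submitters' processing notes, without a version. Every array had a trimmed mean intensity (2% off each end) of 500.003, so the arrays had been scaled before deposit. MAS5 gives noisy low values, hence the pseudocount and filter. The number of arrays, 2 per group, limits the precision. Nothing says whether littermates were paired.

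Intensities were taken as log2(signal + 16) with no further normalization. After 64 control probe sets were left out, probe sets were kept if their mean over the 5 distinct arrays reached the 40th percentile of 45037, equal to an intensity of 61.9, which left 27022. R 4.3.3 and limma 3.58.1 (lmFit, then eBayes with trend) gave two-sided p-values, which were adjusted by Benjamini-Hochberg and called under 0.05, on 2 residual and 6.00 prior degrees of freedom. Gene names came from the platform annotation, and gene numbers tied 34741 of 34945 singly named probe sets to RefSeq symbols. The code was tested on simulated data.

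The genes described and the pathway and marker lists were chosen with earlier results of these data known. Named genes are all 9 genes, the 3 genes with the smallest unadjusted p of each pathway list, the 5 most like Fst, Col10a1 and sex-linked genes. The alternatives were another pseudocount, filter, scaling or eBayes setting, 1 probe set per gene, a replicate block, an Xist covariate, leaving out each array, and counting the shared array as control, as 13del-tg or as both.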

Additional observations from a re-analysis of the deposited data

Results flagged for a closer look

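The shared array was left out of the reported comparison. On it 5 of the 15 kept probe sets had a signal above both controls. Fst 1434458_at had 620.9, against 305.3 and 235.4 in the controls, and this was below both 13del-tg arrays. Fstl3 had 167.2, Inhba 1422053_at had 380.6, Inhbb 1426859_at had 147.8 and Grem1 had 112.6, and each of these 4 was above both 13del-tg arrays as well. Over all kept probe sets, 36.0% were above both controls on that array.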

How the results depend on the processing

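Of 257 differences of the 15 kept probe sets under the alternatives, 231 moved by less than the spread between replicates, and 16 changed sign, all of Fstl1, Bambi, Nog, Inhbb 1426859_at and Chrdl1 1421295_at. The 231 include the filter, trend, robust eBayes, 1 probe set per gene and replicate block settings, which cannot move a difference. The spread is each probe set's own, so a variable one passes easily. Nog stayed within its spread in 17 of 17 alternatives, yet changed sign in 5. The count of 231 is therefore no measure of stability. Fst 1434458_at was 0.95 with the shared array as control and 0.89 with it under both labels, and 1.16 to 1.51 when 1 array was left out, which leaves 1 array in its group that is assumed to vary like the others. Over all kept probe sets, 2 were higher and 8 lower. These counts were 1 and 1 with a pseudocount of 1, 2 and 5 with 64, 1 and 0 without a filter, 1 and 1 with a 60th percentile filter, 1 and 1 with quantile normalization, 3 and 21 with arrays centred on their median, 1 and 0 without the trend, and 2 and 18 with robust eBayes. With the shared array as control they were 1 and 0, as 13del-tg 0 and 8, and under both labels 0 and 0. With the Xist covariate they were 1 and 10. Leaving out 1 array gave 1 to 199 higher and 5 to 43 lower, with 199 and 43 without control 2. The replicate number as a block gave 330 higher and 338 lower. Arrays of the same number deviated together with a correlation of 0.22, but the labels do not say that numbers mark litters, so this is not taken as a pairing. No probe set of the pathway lists passed, except 2 higher with the replicate block and 0 to 2 higher when 1 array was left out, with the 2 arising without control 2. The cause of these changes was not tested. Of the 15 named pathway genes, Hjv alone crossed the threshold, in those 2 fits, and none changed sign.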
